A study of Drosophila melanogaster with 4 samples.

Results

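H2A.V regions of 0.55 to 1.3 kb are the short stretches of chromatin in which the histone variant H2A.V was called across more than a minimal window. They were chosen from the authors' list of H2A.V regions by width alone, over 550 and under 1300 bp, on every sequence name. The rule took 1131 of the 3229 listed regions (35.0%). The list comes from chromatin immunoprecipitation and sequencing (ChIP-seq) of unstaged, wild-type Drosophila melanogaster embryos fixed with formaldehyde. The series, whose title concerns nucleosome spacing in euchromatin, holds 4 libraries (input, CTCF, H3 and H2A.V), 1 per antibody and 1 input. Called positions of the H2A.V and the CTCF library were analysed here. The title of the H2A.V library reads H2A.C, and its antibody label, which names H2A.V, was followed. Embryos of mixed age and all their tissues were pooled in each library, so a position can carry H2A.V in some cells and CTCF in others.

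H2A.V is the fly's histone H2A variant and does the work that the separate variants H2A.Z and H2A.X do in mammals. It is known from the first nucleosomes downstream of active start sites, and it also takes part in the DNA damage response and in heterochromatin. CTCF binds DNA through its zinc fingers and is known in the fly as an insulator factor at boundaries of the Hox gene domains. In mammals its bound sites are known to lie in a nucleosome-free stretch between arrays of positioned nucleosomes that often carry H2A.Z.

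The CTCF library held 11657333 tags and gave 2459 peaks, each 201 bp wide. The H2A.V library held 12260001 tags and gave regions with a median width of 1347 bp over the whole list. With 1 library per antibody there is no replicate and no test between groups. The intervals given are 95% counting intervals (Wilson for shares, Newcombe for differences of shares, exact Poisson for counts, order statistics for medians). They treat regions as independent, which neighbours on an arm need not be, and they say nothing of the spread between embryo collections.

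Their median width was 898 bp, with quartiles of 759 and 1071 bp. They covered 1.03 Mb, or 20.3% of the 5.08 Mb covered by all listed regions. Since width chose them, these values only describe the choice. The caller used windows of 500 bp. The narrowest listed width was 501 bp, held by 408 regions, and the next was 626 bp, held by 27. No listed region lay between those widths, and the lower limit of the choice therefore falls in an empty gap. The upper limit cuts through a continuous range, with 1 region of 1297 bp just inside it and 3 regions of 1301 bp just outside.

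CTCF was found at about as many of these regions as over the whole list. Of the 1131, 304 (26.9%, interval 24.4 to 29.5%) shared at least 1 bp with a CTCF peak, against 28.0% of all listed regions. The share was 11.5% (47 of 408) among regions of the narrowest width. It was 30.9% (285 of 923) at 1300 to 2000 bp and 34.8% (267 of 767) above 2000 bp. Against the narrowest regions the share was 15.4 percentage points higher (11.1 to 19.2). Against regions of 1300 to 2000 bp the difference was −4.00 points, with an interval (−7.95 to −0.07) that ends close to 0. A wider region gives a peak more room to overlap, and the overlap rule does not count a peak that stops just short of an edge.

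When peaks beside a region were also counted, the dependence on width was weaker. A CTCF midpoint lay inside or up to 500 bp beyond an edge in 401 of the 1131 regions (35.5%, 32.7 to 38.3%), against 34.6% of all listed regions. The narrowest regions had 28.2% (24.0 to 32.7%), those of 1300 to 2000 bp 33.9% (30.9 to 37.0%) and those above 2000 bp 37.5% (34.2 to 41.0%). The 401 regions were matched to 406 different CTCF peaks, 16.5% of all those listed. For each of the 406 peaks the region was also the nearest one in the list.

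Where CTCF was present at these regions, it was nearly always a single peak. A single CTCF peak was present at 396 of the 401 regions, so that lying on 1 side of the centre followed by construction. Among the 5 regions with more than 1 peak, 4 had a peak on either side and 1 had both on the same side. In all, 397 of 401 (99.0%, 97.5 to 99.6%) had CTCF on 1 side of the centre only, against 97.7% of all listed regions. The difference from regions above 2000 bp, where 272 of 288 (94.4%) did so and 20 had more than 1 peak, was 4.56 points (1.95 to 7.89). The narrowest regions (99.1%, difference −0.13, −1.83 to 3.81) and those of 1300 to 2000 bp (98.4%, difference 0.60, −1.19 to 2.77) could not be told apart from them. CTCF peaks had to be at least 400 bp apart to be called, which limits how many fit at a narrow region.

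The place of the CTCF midpoints differed between width classes. In the regions of 0.55 to 1.3 kb, 252 of the 406 midpoints lay inside and 154 outside. The median midpoint lay 80.5 bp inside the nearest edge (quartiles 95.75 bp outside and 241.75 bp inside). Per 100 regions, 14.1 midpoints (12.0 to 16.4) fell in the last 250 bp inside an edge and 11.8 (9.85 to 13.9) in the first 250 bp outside it. Only 1.86 per 100 (1.15 to 2.84) fell at 250 to 500 bp outside and 2.03 (1.29 to 3.05) at 500 to 1000 bp outside. Outside the regions, CTCF was thus concentrated close to the edge, and the fall beyond 250 bp outside was larger than the counting intervals. Toward the inside these values cannot show such a concentration, since fewer regions are wide enough to hold a deeper midpoint. Only 109 of the regions reached the bin from 600 to 650 bp inside. The fullest 50 bp bin inside by count, from 200 to 250 bp, held 42 midpoints, and all 1131 regions reached it. The bin from 550 to 600 bp held 12, and only 250 regions reached it, so the counts do not mark a preferred depth. The fullest bin outside, from 100 to 150 bp, held 36.

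**Figure D1:**
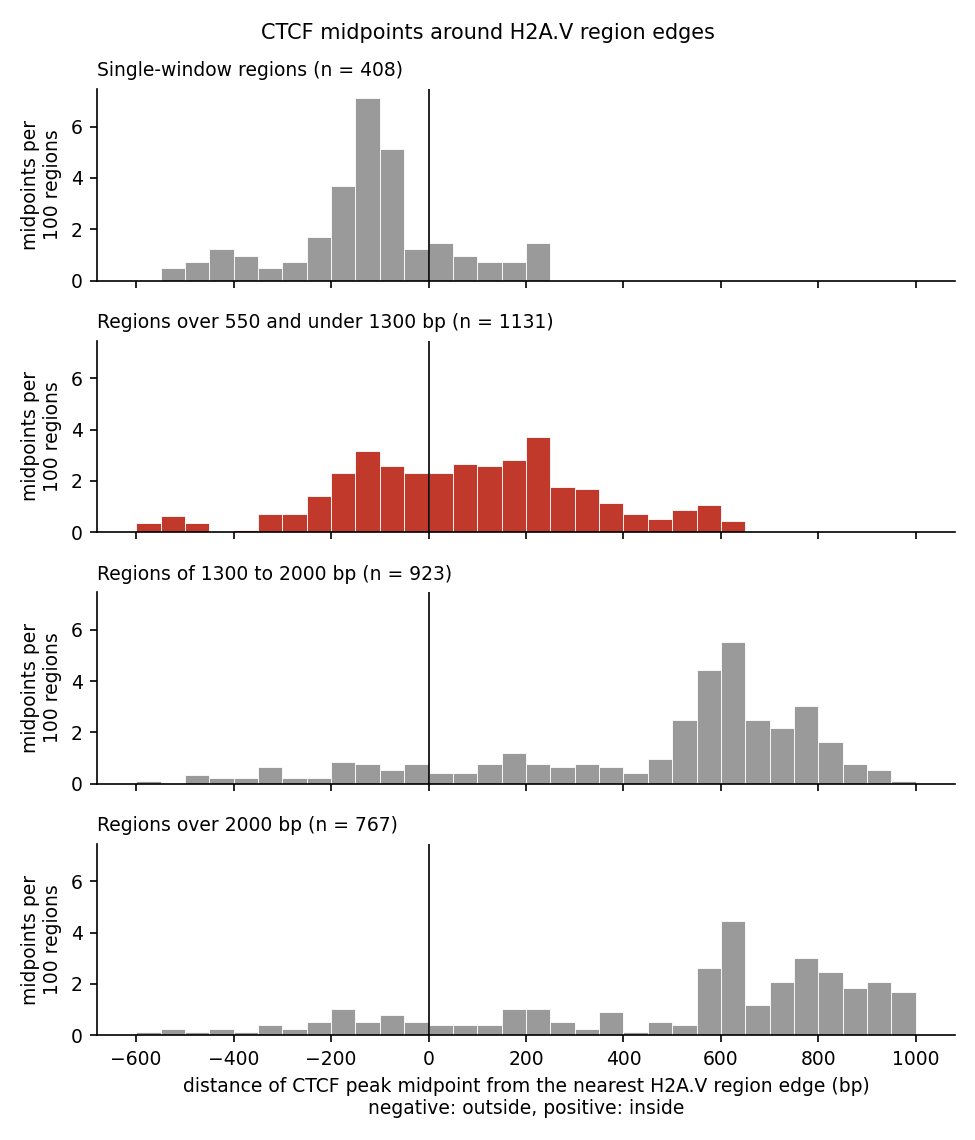
Each panel shows 1 width class of H2A.V regions, with the distance of CTCF peak midpoints from the nearest region edge in bp on the x axis (50 bp bins, negative outside, drawn up to 1000 bp inside) and midpoints per 100 regions on the y axis. Regions of 0.55 to 1.3 kb (red) have midpoints on both sides of the edge, with 42 in the bin at 200 to 250 bp inside, while the class of 1300 to 2000 bp has most of its midpoints over 500 bp inside. Bars are not scaled to the number of regions wide enough to reach a bin.

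These regions stood apart from wider ones in the 250 bp on either side of an edge. In the last 250 bp inside, they held 14.1 midpoints per 100 regions (12.0 to 16.4). Regions of 1300 to 2000 bp held 3.58 there (2.46 to 5.02) and those above 2000 bp 3.26 (2.11 to 4.81). The narrowest held 5.39 (3.38 to 8.16). In the first 250 bp beyond an edge, a CTCF midpoint lay at 132 of the 1131 regions (11.7%, 9.93 to 13.7%), against 8.14% of all listed regions. The share was 3.03% (28 of 923) at 1300 to 2000 bp, a difference of 8.64 points (6.45 to 10.8). It was 3.39% (26 of 767) above 2000 bp, a difference of 8.28 points (5.96 to 10.5). The narrowest regions had still more, 18.9% (77 of 408), a difference of −7.20 points (−11.6 to −3.17) for the regions of 0.55 to 1.3 kb. CTCF just outside an edge was thus most frequent at the narrowest regions and least frequent above 1300 bp.

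Inside the regions, CTCF midpoints were spread nearly evenly between edge and centre. Of the 252 midpoints inside, 142 (56.3%, 50.2 to 62.3%) lay in the outer 50% of the way from edge to centre, against 39.0% over all listed regions. Even placement would give 50%, and the interval barely leaves that out. The share was 50.8% (93 of 183) in regions of over 800 bp and 60.7% (108 of 178) in those under 1100 bp. With only the late CTCF peaks of the deposited list it was 49.4% (80 of 162), and with only the early ones 68.9% (62 of 90). In regions of 1300 to 2000 bp it was 17.6% (49 of 279, 13.5 to 22.5%), 38.8 points lower (30.9 to 46.0). Above 2000 bp it was 43.2% (118 of 273), 13.1 points lower (4.57 to 21.4). The narrowest regions had 59.1% (13 of 22), a difference of −2.74 points whose interval (−21.4 to 18.5) includes 0. Cut into 5 equal zones from edge to centre, the regions of 0.55 to 1.3 kb held 45, 63, 60, 43 and 41 midpoints. The zones next to the edge and next to the centre were thus both below the zones between them on the edge side, though the intervals of neighbouring zones overlapped. The wider class held 14, 28, 20, 86 and 131 from edge to centre.

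Width and place moved together within the class itself. In regions of 626 to 750 bp (253 regions) the median CTCF midpoint lay 40.5 bp outside the nearest edge, with an interval from 87 bp outside to 28 bp inside. At 751 to 875 bp (276 regions) it lay 20.5 bp inside, with an interval that includes the edge. It lay 142 bp inside at 876 to 1000 bp (216 regions) and 146 bp inside at 1001 to 1125 bp (168 regions). At 1126 to 1250 bp (167 regions) it lay 263 bp inside (224 to 427). The median thus lay deeper inside in wider regions, while below 876 bp its intervals include the edge.

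The share of the midpoints that lay inside the region followed the same order, apart from a small step back at 1001 to 1125 bp. It was 46.7% (36.7 to 56.9%) at 626 to 750 bp, 53.2% (43.2 to 63.0%) at 751 to 875 bp and 67.6% (56.3 to 77.1%) at 876 to 1000 bp. It was 65.2% (53.4 to 75.4%) at 1001 to 1125 bp and 83.1% (71.5 to 90.5%) at 1126 to 1250 bp. For the regions of the narrowest width, just outside the choice, it was 19.0% (12.9 to 27.0%). For all regions of 1251 to 1375 bp, which straddle the upper limit, it was 82.0% (70.5 to 89.6%). A wider region has more room for a midpoint to be inside, and the share that room alone would give was not computed.

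**Figure D2:**
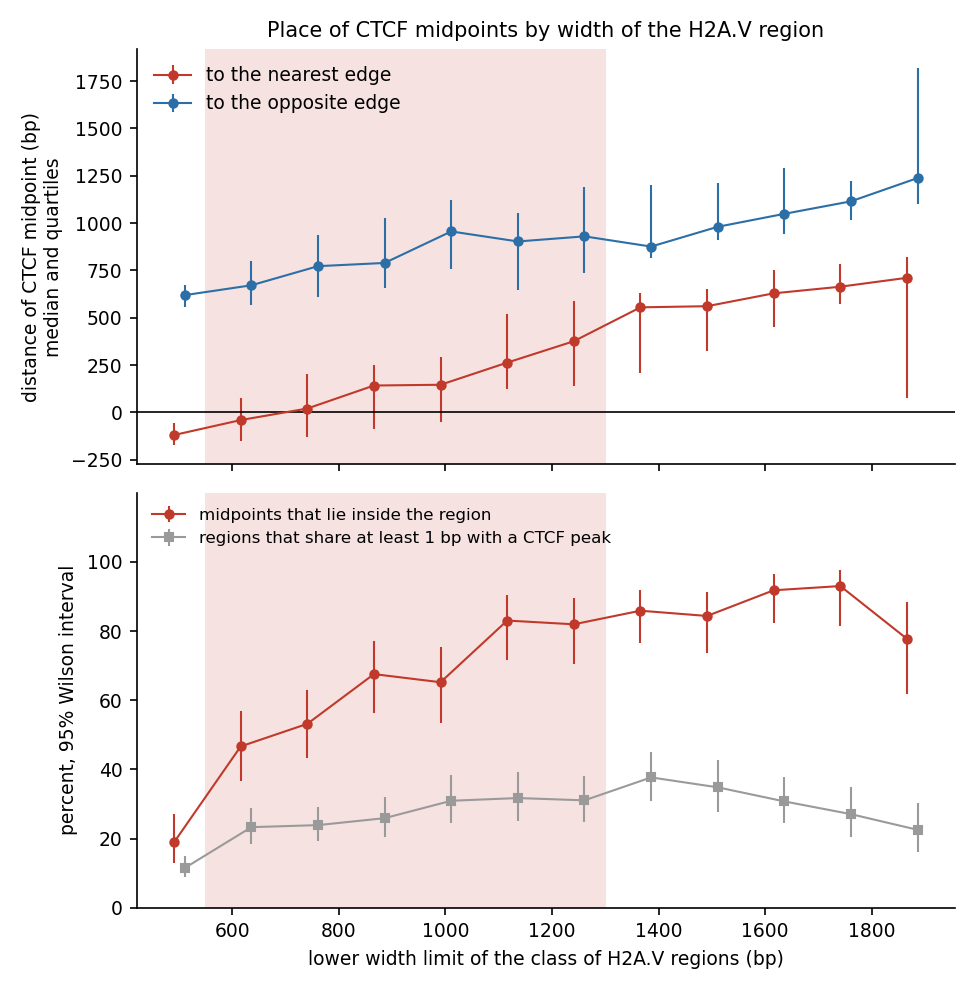
The upper panel plots the distance of CTCF midpoints to the nearest and to the opposite edge (bp, median with quartiles) and the lower panel the percent of midpoints inside and the percent of regions overlapping CTCF (95% Wilson intervals), both against the lower width limit of the class, with the range of 0.55 to 1.3 kb shaded. In that range the nearest-edge median goes from 40.5 bp outside to 263 bp inside over the 5 classes up to 1250 bp, and the share inside from 46.7% to 83.1%.

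The distance to the opposite edge was also larger in wider regions up to 1125 bp, with a step back above that width. The median from the CTCF midpoint to the far edge was 671.5 bp (617 to 739) at 626 to 750 bp, 772.5 bp (681 to 824) at 751 to 875 bp and 789.5 bp (741 to 914) at 876 to 1000 bp. It was 956 bp (833 to 1035) at 1001 to 1125 bp and 903 bp (752 to 955) at 1126 to 1250 bp. Over the whole choice it was 789.5 bp (quartiles 631.25 and 967.5 bp), and the regions of the narrowest width had 619.5 bp (598 to 639). The near and far distances add up to the width, so they are one measurement read from either end. From the centre of the region, the median CTCF midpoint was 348 bp away (323.5 to 392.5), against 207 bp (179.5 to 231) in regions of 1300 to 2000 bp. It was 369.5 bp away (348 to 389) in the narrowest regions and 722.5 bp away (640 to 860.5) in those above 2000 bp, so this distance had no single order by width.

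The lower-coordinate side held the CTCF in 175 of 397 regions of 0.55 to 1.3 kb with CTCF on 1 side (44.1%, 39.3 to 49.0%), against 47.8% of all listed regions. The share was 40.0% on 2R, 44.7% on the X, 44.8% on 2L and on 3R, and 47.2% on 3L, below 50% on each. In regions of 1300 to 2000 bp it was 52.6% (47.0 to 58.1%), which leaves a difference of −8.52 points (−15.8 to −1.08) for the narrower class. The differences from the narrowest regions (50.9%), −6.80 points (−17.0 to 3.51), and from those above 2000 bp (46.7%), −2.61 points (−10.2 to 5.03), have intervals that include 0. The median midpoint lay 106.5 bp inside the edge on the lower side and 72 bp inside on the higher side, with overlapping intervals (43 to 162 and 17 to 126 bp). The files carry no usable strand, so a side of the region has no tie to the direction of a gene here.

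Single regions illustrate the arrangement, taken from among the first in the deposited order outside 2R. They were drawn only from regions with a CTCF midpoint within 250 bp of an edge, inside or outside it. On 3R, the region from 27038199 to 27039361 (dm3) was 1163 bp wide, and a CTCF peak from 27039039 to 27039239 had its midpoint 222 bp inside the higher edge and 940 bp from the other. Also on 3R, the region from 11066898 to 11068189 was 1292 bp wide, and its CTCF peak from 11068208 to 11068408 lay wholly outside, with the midpoint 119 bp beyond the edge. On 3L, the region from 17638137 to 17639341 was crossed at its lower edge by the peak from 17638093 to 17638293, whose midpoint lay 56 bp inside. By that rule the peak lay near one end in each of the 3 regions, with most of the called H2A.V to 1 side of it.

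The 4 regions with CTCF on either side were exceptions to the common form, and 3 of them lay outside 2R. On 3L, the region from 23331261 to 23332309 had a CTCF midpoint 20 bp beyond its lower edge and another 52 bp beyond its higher edge. Its 1049 bp thus lay between the CTCF midpoints, while both peaks reached into the region. On 2L, the region from 9758055 to 9759119 had midpoints 330 and 75 bp inside its lower and higher edges. Also on 2L, the region from 17383948 to 17384959 had them 238 and 291 bp inside. The annotation at all these positions was not used here, since the gene table at hand is of another build.

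The next H2A.V region was usually farther away on the side that held CTCF. Among the 396 regions with CTCF on 1 side and a neighbour on either side, the median gap was 28500.5 bp (21747 to 32773) on the CTCF side and 11939 bp (9948 to 15165) on the opposite side of the same regions. The ratio of these medians was 2.39. The neighbour on the CTCF side was the nearer one in 145 of 396 (36.6%, 32.0 to 41.5%), against 41.4% of all listed regions, and the farther one in 251. A gap under 2 kb was present on the CTCF side in 21 regions and on the opposite side in 59. A gap over 50 kb was present in 135 and 84. Over the 1081 such regions of the whole list, a gap under 2 kb was present in 93 on the CTCF side and 199 on the opposite side, and a gap over 50 kb in 303 and 222, with a ratio of medians of 1.82. The asymmetry was thus in the whole list too. The interval of the share leaves out the 50% of an even split, so short H2A.V regions with CTCF faced the emptier side more often than the fuller one.

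The direction was the same for midpoints inside and outside the edge. With the midpoint inside, the CTCF-side neighbour was nearer in 83 of 246 regions (33.7%, 28.1 to 39.9%). With the midpoint outside, it was nearer in 62 of 149 (41.6%, 34.0 to 49.6%). The median gaps were 24874 and 11011.5 bp on the CTCF and opposite sides in the former, and 32795 and 13937 bp in the latter. Regions without CTCF had a median gap of 8490.5 bp (7436 to 9438) over both their sides. The opposite side of regions with CTCF was thus nearer to that value than the CTCF side was.

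Wider regions leaned the same way. At 1300 to 2000 bp the CTCF-side neighbour was nearer in 135 of 306 (44.1%, 38.7 to 49.7%), and the difference for the regions of 0.55 to 1.3 kb was −7.50 points, with an interval (−14.7 to −0.20) that nearly reaches 0. Above 2000 bp it was nearer in 108 of 267 (40.4%, 34.7 to 46.4%), a difference of −3.83 points whose interval (−11.4 to 3.66) includes 0. Among regions of the narrowest width it was nearer in 60 of 112 (53.6%, 44.4 to 62.5%). There the difference was −17.0 points (−27.0 to −6.55). The interval of the narrowest regions includes the 50% of an even split, so no lean to either side could be told there. With the midpoint inside, it was nearer in 7 of 21 narrowest regions (33.3%, 17.2 to 54.6%). In the regions of 0.55 to 1.3 kb that share was 33.7%. With the midpoint outside, it was nearer in 53 of 91 narrowest regions (58.2%, 48.0 to 67.8%). Most narrowest regions had the midpoint outside, so the −17.0 points also compare unlike mixes of inside and outside. The lean away from the neighbour in the regions of 0.55 to 1.3 kb could not be told apart from that of the widest.

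Seen edge by edge, CTCF was more frequent where the gap beyond the edge was 10 kb or more. Of the edges of these regions with a gap under 1 kb, 13 of 157 (8.28%, 4.90 to 13.7%) had CTCF between the centre and 500 bp beyond the edge. The share was 4.08% (2.08 to 7.85%) with gaps of 1 to 2 kb, 12.7% (9.71 to 16.3%) at 2 to 5 kb and 13.2% (9.94 to 17.3%) at 5 to 10 kb. It was 23.0% (19.9 to 26.4%) at 10 to 50 kb and 26.2% (22.7 to 30.1%) above 50 kb. Edges of all listed regions had 10.2%, 7.55%, 12.5%, 17.0%, 22.6% and 25.0% in the same order of gaps, so they had a like order. For midpoints inside the regions of 0.55 to 1.3 kb alone, the shares were 4.46%, 3.06%, 8.27%, 7.36%, 15.6% and 15.1%.

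**Figure D3:**
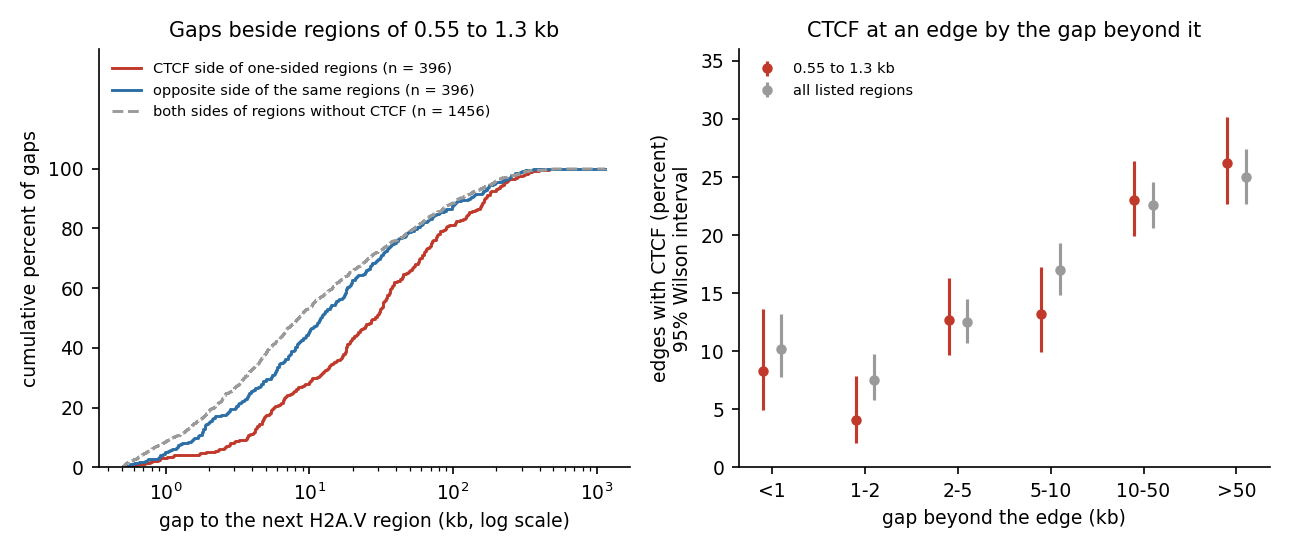
The left panel is the cumulative percent of gaps against the gap to the next H2A.V region (kb, log scale) for regions of 0.55 to 1.3 kb, and the right panel the percent of region edges with CTCF by the gap beyond the edge (95% Wilson intervals). The CTCF side (red, median 28500.5 bp) lies to the right of the opposite side (blue, 11939 bp) and of regions without CTCF (dashed), and the share of edges with CTCF goes from 8.28% under 1 kb to 26.2% above 50 kb.

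The neighbours themselves were much alike on either side. The neighbour on the CTCF side had a median width of 1270 bp and that on the opposite side 1319.5 bp. CTCF was present at 148 of 396 neighbours (37.4%, 32.8 to 42.2%) on the CTCF side and at 133 (33.6%, 29.1 to 38.4%) on the opposite side, with overlapping intervals. Of all listed regions, 34.6% had a CTCF midpoint inside or up to 500 bp beyond an edge, and both intervals include that share. The neighbour had CTCF on the flank that faced the region in 80 cases on the CTCF side and in 68 on the opposite side. The like share over all listed regions was not computed. Neighbours lay close on the CTCF side in few cases. Of the 21 regions with the CTCF-side neighbour under 2 kb away, 8 had the CTCF midpoint in the gap and 13 inside the region.

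One such gap lay on 2L, where the region from 18968140 to 18968895 had a CTCF midpoint 69 bp beyond its higher edge and the next region began after a gap of 910 bp. On the X, the region from 6160223 to 6161145 had a CTCF midpoint 189 bp beyond its higher edge, in a gap of 803 bp. At these sites CTCF lay between a pair of H2A.V regions. This form was found at 14 of the 1131 regions, with a gap under 2 kb and the midpoint up to 1 kb from the edge. That reach is wider than the 500 bp behind the 8 midpoints in a gap given above. The share over all listed regions was not computed, so the count cannot be read as a trait of this width class.

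The regions of 0.55 to 1.3 kb were spaced a little more widely than the other classes. Their median gap to the nearest H2A.V region on either side was 4404 bp (3987 to 4743), against 3318 bp (3011 to 3747) at 1300 to 2000 bp and 3172 bp (2754 to 3523) above 2000 bp. For the narrowest regions it was 3215 bp (2624 to 3827). The next region lay under 5 kb away for 617 of 1131 (54.6%, 51.6 to 57.4%), against 59.5% of all listed regions. It lay under 1 kb away for 150 (13.3%, 11.4 to 15.4%), against 14.1% of all listed regions. The smallest gap in the list was 504 bp.

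Regions with CTCF lay farther from other H2A.V regions. Regions of 0.55 to 1.3 kb with CTCF had a median gap to the nearest region of 6514 bp (5544 to 7910), and those without it 3540.5 bp (3075 to 3930). The next region lay under 5 kb away for 42.4% (37.7 to 47.3%) with CTCF and for 61.2% (57.6 to 64.7%) without. The intervals of these pairs do not overlap. Over all listed regions the medians were 5379 and 2982 bp, the same direction. A neighbour under 5 kb on both sides was found for 17 of the 401 regions with CTCF and for 106 of the 730 without, against 81 of 1117 and 374 of 2112 over all listed regions.

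The nearest neighbour was of the same width class for 410 of the 1131 regions (36.3%, 33.5 to 39.1%), where the class makes up 35.0% of the list. It had the narrowest width for 137, a width of 1300 to 2000 bp for 330 and more than 2000 bp for 254. These shares lie within their counting intervals of the make-up of the list. From midpoint to midpoint, neighbouring regions of the class were 52031.5 bp apart in the median, with quartiles of 15421.5 and 149448 bp.

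Across the chromosome arms the regions were spread much like the whole list. The arm 3R held 262 (23.2%), 3L 236 (20.9%), 2R 227 (20.1%), the X 193 (17.1%) and 2L 191 (16.9%). Their shares of all listed regions were 23.4%, 18.8%, 19.6%, 18.3% and 17.5%. Chromosome 4 held 13 (1.15%, 0.673 to 1.96%), against 1.55% of all listed regions. On heterochromatic sequence names lay 9 of the 1131, against 31 of all 3229 on heterochromatic or unplaced names. On chromosome 4, 26.0% (15.9 to 39.6%) of the listed regions were in the width range, and on 3L 38.9% (35.1 to 42.8%), the lowest and the highest share among the arms. The former interval includes the 35.0% of the whole list, and the latter begins just above it.

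Density per Mb of span, taken from the first to the last called position of either list, was 8.33 (7.19 to 9.59) on 2L and 8.62 (7.44 to 9.92) on the X. It was 9.40 (8.29 to 10.6) on 3R, 9.63 (8.44 to 10.9) on 3L and 10.7 (9.39 to 12.2) on 2R. Chromosome 4 had 11.1 (5.90 to 19.0), an interval that spans all the other arms. Neighbours in this order had overlapping intervals throughout.

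**Figure D4:**
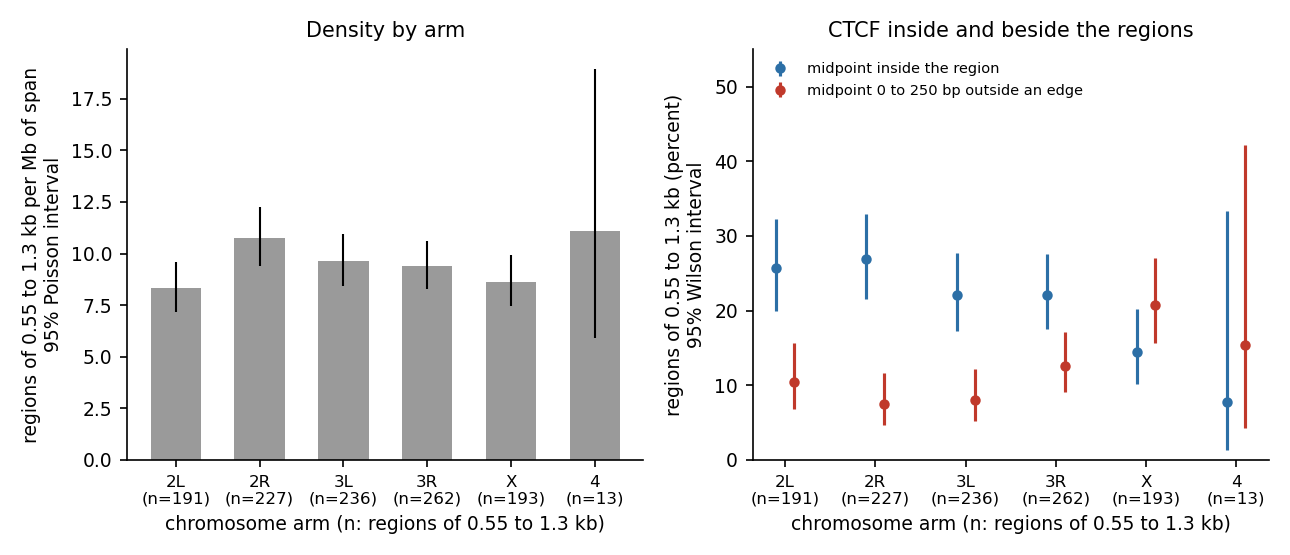
The left panel shows the density of H2A.V regions of 0.55 to 1.3 kb per Mb of span (bars, 95% Poisson intervals) and the right panel the percent of these regions with a CTCF midpoint inside (blue) or 0 to 250 bp outside an edge (red, 95% Wilson intervals), by chromosome arm. The X is the only large arm where the red point, 20.7%, is above the blue one, 14.5%.

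On the X, CTCF lay beside these regions more often and inside them less often than on the autosomes. A CTCF midpoint 0 to 250 bp outside an edge was present at 40 of 193 X-linked regions (20.7%, 15.6 to 27.0%) and at 89 of 916 regions of 2L, 2R, 3L and 3R (9.72%, 7.96 to 11.8%), a difference of 11.0 points (5.48 to 17.5). A midpoint inside was present at 28 (14.5%, 10.2 to 20.2%) and 220 (24.0%, 21.4 to 26.9%), a difference of −9.51 points (−14.7 to −3.26). The total with CTCF inside or up to 500 bp beyond an edge did not separate them, at 39.4% for the X (32.8 to 46.4%) and 34.8% for the autosomal arms (31.8 to 38.0%). Among single arms the share beside an edge was 10.5% on 2L, 7.49% on 2R, 8.05% on 3L and 12.6% on 3R. This comparison was made after the values by arm had been seen. The planned comparison was the share that shared at least 1 bp with a CTCF peak. It was 24.4% for the X (47 of 193) and 27.6% for the autosomal arms (253 of 916). The difference of −3.27 points had an interval (−9.54 to 3.82) that includes 0.

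Distances of the same midpoints give this contrast in another form and are no separate support for it. The median CTCF midpoint lay 78 bp outside the nearest edge on the X (77 midpoints, interval 105 to 19 bp outside) and 135 bp inside it on the autosomal arms (323 midpoints, 81 to 162 bp inside). X-linked regions were slightly narrower, with a median of 848 bp against 878 to 927.5 bp on the other large arms. In regions of 876 to 1297 bp the share with a midpoint just outside an edge was 21.3% for the X (19 of 89) and 6.16% for the autosomal arms (31 of 503), 15.2 points apart (7.55 to 25.0). In regions of 626 to 875 bp it was 20.2% (21 of 104) and 14.0% (58 of 413), with a difference of 6.15 points whose interval (−1.40 to 15.4) includes 0. For a midpoint inside, the difference was −9.86 points (−17.6 to 0.12) in the wider and −7.83 points (−14.1 to 0.50) in the narrower of these, both with intervals that just include 0. Whether the contrast differed between these width ranges was not tested. The CTCF-side neighbour was nearer in 34 of 76 X-linked regions (44.7%, 34.1 to 55.9%) and in 109 of 315 autosomal ones (34.6%, 29.6 to 40.0%), with overlapping intervals.

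**Figure D5:**
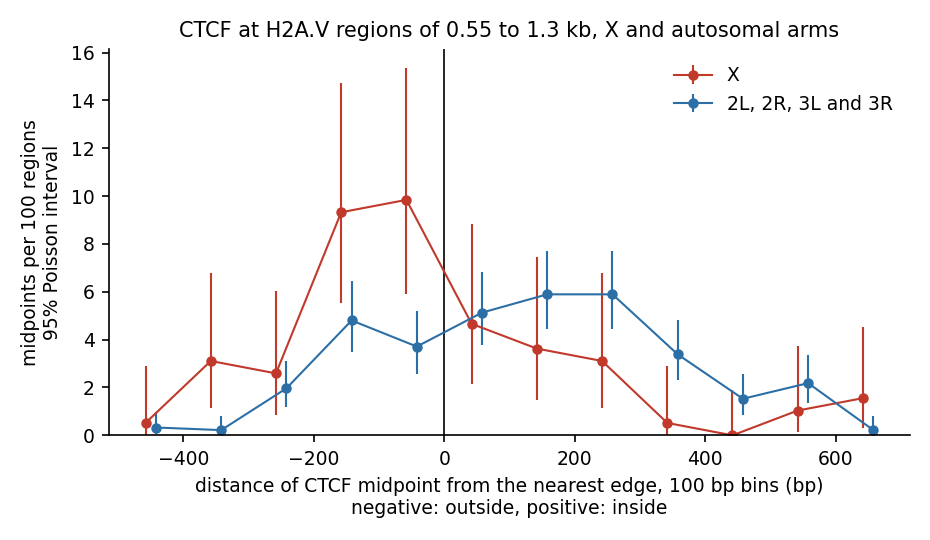
CTCF midpoints per 100 H2A.V regions of 0.55 to 1.3 kb (y axis, 95% Poisson intervals) are plotted in 100 bp bins of distance from the nearest edge (x axis, bp, negative outside) for the X (red, 193 regions) and the autosomal arms (blue, 916 regions). On the X the fullest bins are the first 2 outside the edge, with 9.84 and 9.33 per 100, and on the autosomal arms those from 100 to 300 bp inside, with 5.90 each. Fewer regions are wide enough to reach the deeper bins, and the values are not scaled for that.

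Other widths on the X leaned the same way beside the edge. Outside the range of 0.55 to 1.3 kb, 10.8% (43 of 397) of X-linked regions and 5.18% (85 of 1642) of autosomal ones had a midpoint 0 to 250 bp outside, 5.65 points apart (2.72 to 9.23). A midpoint inside was found in 24.2% and 26.7% of them, with a difference of −2.55 points (−7.07 to 2.36). Of the last 245 CTCF peaks in deposited order, 119 (48.6%) are X-linked, against 506 of all 2459 (20.6%). Without these 245, the regions of 0.55 to 1.3 kb had a midpoint just outside in 16.6% of X-linked and 9.06% of autosomal cases, 7.52 points apart (2.50 to 13.6). A midpoint inside was then found in 11.4% and 22.5%, a difference of −11.1 points (−15.8 to −5.23). In the other widths it was then found in 15.9% and 25.5%, a difference of −9.65 points (−13.6 to −5.23), about as large.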

How the data were processed

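Alignment to dm3 was done with Bowtie 1.1.1, and HOMER called the peaks, according to the submitters' processing notes. The deposited files hold the start and end of called positions in bp, from 1 library each. Per the file headers, CTCF peaks were called in factor style (200 bp, at least 400 bp apart, at least 37 tags) and H2A.V regions in histone style (500 bp windows, at least 67 tags, with a distance setting of 1000 bp), both at a 4-fold excess over the input. Score and strand are constant in both files and were not used. The H3 and input libraries were not analysed here.

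Distances run from the CTCF midpoint to the nearest region edge. Overlap means at least 1 bp shared. Gaps are counted from edge to edge, and coordinates from 1. The width range, the questions and the rule for single regions were set with earlier results of these data known. That rule named up to 3 regions each, the first in deposited order outside 2R, with CTCF inside an edge, outside it, on both sides, or in a gap under 2 kb. Some of them are printed. Distance and side were checked on simulated peaks. Alternatives covered overlap, reach, width limits and arms. The tools were Python 3.11.15 with NumPy 2.4.6 and SciPy 1.17.1, and matplotlib 3.10.9 for the plots.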

Additional observations from a re-analysis of the deposited data

How the results depend on the processing

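Of 81 alternative values for the 7 quantities, 70 stayed within the counting interval of the reported value. Many of them, such as those that left out 1 arm, reused most of the same regions and could hardly leave it. Giving each CTCF peak to its nearest region only changed nothing, since no peak at these regions lay nearer to another. The count is therefore no measure of robustness. The share of regions with CTCF, 26.9%, became 22.1% when at least 50% of the peak had to be covered, and 22.1% when the midpoint had to lie inside. The outer 0.4 of the way from edge to centre held 42.9% of midpoints inside, against 40% under even placement. With widths over 800 bp only, the outer 50% held 50.8% of midpoints inside, against 56.3%. The share with CTCF within 250 bp outside an edge was then 9.27%, against 11.7%, and the CTCF-side neighbour was nearer in 31.7%, against 36.6%. Without the X, the share with CTCF just outside an edge was 9.81%. The next alternatives were chosen after the data were seen. With early CTCF peaks only, in deposited order, 68.9% of midpoints inside lay in the outer 50%, 5.22% of regions had one within 250 bp outside an edge, and 100% of regions with CTCF had it on 1 side. With late peaks only, the outer 50% held 49.4%, on the other side of even placement, and 6.45% of regions had a midpoint within 250 bp outside. Fewer peaks lower the latter shares by construction; the cause of the change in the outer 50% was not tested. Across the alternatives in overlap, reach, width and arms, the CTCF-side neighbour was nearer in 31.7 to 38.9%, and the lower-coordinate side held CTCF in 42.1 to 46.2%. No paired analysis was possible because there is 1 library for each antibody. Sites under 37 tags (CTCF) and windows under 67 tags (H2A.V) are not listed, and gaps in H2A.V under about 500 bp are not visible.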

Other observations

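CTCF peaks from the later part of their list were found more often at these regions. Of the 1230 early peaks, 161 (13.1%, 11.3 to 15.1%) had their midpoint inside or up to 500 bp beyond an edge, and of the 1229 late ones 245 (19.9%, 17.8 to 22.3%). At any listed H2A.V region, 439 of the early peaks (35.7%, 33.1 to 38.4%) and 709 of the late ones (57.7%, 54.9 to 60.4%) were so placed, so the contrast was one of the whole list. Inside the regions of 0.55 to 1.3 kb lay 90 of the early and 162 of the late peaks. The meaning of the deposited order is not recorded in the files.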
